A study of Mus musculus with 2 samples.

Results

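The cells described here are Scx-positive limb mesenchyme of the mouse hindlimb at E11.5. They were picked on raw unique molecular identifiers (UMIs, each standing for 1 captured RNA molecule) in 2 droplet single-cell RNA libraries. Scx encodes scleraxis, a basic helix-loop-helix transcription factor that marks tendon and ligament progenitors. A cell entered the mesenchyme gate with at least 1000 genes, at most 10% mitochondrial UMIs, at least 2 UMIs of Prrx1 (a limb mesenchyme transcription factor), no UMI of Epcam, Cdh5, Lbx1 or Csf1r, and globins under 2% of its UMIs. A gated cell was called Scx-positive with at least 2 Scx UMIs and no UMI of Gsc, Barx2 or Cnmd. The rule kept 2451 of 12386 gated cells of dual-enSERT-1, or 19.8% (exact 95% interval 19.1 to 20.5), and 466 of 3750 gated cells of dual-enSERT-2, or 12.4% (11.4 to 13.5). In all, 2917 of 29393 barcodes were Scx-positive cells. They are set beside the gated cells without any Scx UMI (Scx-0 cells), which number 5780 and 2456 in the same order of libraries.

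Both embryos were of the FVB strain and carried a pair of fluorescent reporters at the H11 site under forms of the ZRS, an enhancer that directs Shh expression in the limb. In both, the enhancer without the variant was joined to mCherry and ZRS404G>A to eGFP. The genotype label of dual-enSERT-1 joins the 2 reporters by a slash, and that of dual-enSERT-2 adds parts called SI and B, which are not explained. Each arrangement was sampled in 1 embryo and 1 library. Embryo, arrangement, library and depth therefore cannot be told apart, no test across libraries was possible, and both libraries are given side by side as repeats of each comparison between cell groups. Both carry the reporters and neither is a control without them.

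During limb development scleraxis is switched on early in mesenchyme that will give rise to tendons, and also in cells that coexpress Sox9 and later take part in the attachment of tendon to bone. Sox9 is the transcription factor that starts cartilage formation. Tenomodulin (Tnmd), fibril collagens and small leucine-rich proteoglycans are made later, as tendon cells mature, under signals that include TGF-beta and FGF, and interstitial muscle connective tissue in the same limb is marked by Osr1, Osr2 and Tcf7l2.

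Of the tendon markers, Scx follows from the rule, Tnmd and Kera were near 0, and fibril collagens were measured in both groups. Tnmd was at 0.133 CPM (the gene's share of all UMIs of the pooled cells of a group, scaled to 1000000) in Scx-positive cells of dual-enSERT-1, from 6 UMIs in 2451 cells, against 0.137 CPM in Scx-0 cells. In dual-enSERT-2 it was at 0.294 CPM, from 4 UMIs in 466 cells, against 0.0168 CPM, from 1 UMI. Tnmd UMIs were thus rare in both groups. Col1a1, a fibril collagen of tendon, skin and bone, was at 41.3 CPM (39.4 to 43.2, exact Poisson interval) against 30.2 CPM (29.1 to 31.4) in dual-enSERT-1, and at 12.7 CPM (10.9 to 14.7) against 13.2 CPM (12.3 to 14.2) in dual-enSERT-2, so its difference was in 1 library. Kera, a proteoglycan of tendon and cornea, was at 1.31 against 0.343 CPM in dual-enSERT-1 and had no UMI in Scx-positive cells of dual-enSERT-2, a count of 0 that allows up to 0.220 CPM. These cells are therefore called by their rule and not as tendon cells. Intervals here and below are at 95% and cover counting error only.

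Scx itself was at 195 CPM in Scx-positive cells of dual-enSERT-1 and 98.9 CPM in those of dual-enSERT-2, values that follow from the rule. Many cells lay at its edge: 956 of 2451 (39%) and 252 of 466 (54.1%) had exactly 2 Scx UMIs, and 1939 and 660 cells with the same 0 UMIs of Gsc, Barx2 and Cnmd lay just outside with 1. The highest Scx count of a cell was 22 in the first library and 9 in the second. The demand for no Gsc, Barx2 or Cnmd UMI removed 1578 of 4029 gated cells with at least 2 Scx UMIs (39.2%) in dual-enSERT-1 and 100 of 566 (17.7%) in dual-enSERT-2. Gsc and Barx2 accounted for most of this loss, with 1466 and 99 cells, and Cnmd, a cartilage glycoprotein, for 153 and 1. With a threshold on raw UMIs, a deeper cell passes more easily: the median cell held 16151 UMIs in Scx-positive cells against 14404 in Scx-0 cells of dual-enSERT-1, and 27814.5 against 24924.5 in dual-enSERT-2. Gated cells of at least 10000 UMIs were also thinned to 10000 before the rule was applied, leaving out 1900 and 472 shallower cells. Of the thinned cells, 1508 of 10486 (14.4%) and 133 of 3278 (4.06%) passed.

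Scx UMIs outside the mesenchyme were fewer, but not absent. Erythroid cells, which should lack Scx, were chosen on globins of at least 20% of UMIs, without removal of doublets. Whether their Scx UMIs came from free RNA in the droplets or from doublets was not tested. Scx was at 17.6 CPM in erythroid cells of dual-enSERT-1, with a UMI in 12.8% of cells at a median of 20916 UMIs. In those of dual-enSERT-2 it was at 2.19 CPM, with a UMI in 3.70% of cells at a median of 28128 UMIs. A UMI was seen in 53.3% and 34.5% of gated mesenchyme. In muscle progenitors (at least 2 Lbx1 UMIs and no Prrx1 UMI) Scx was at 45.5 and 16.6 CPM in the libraries' order. The Scx gene spans chr15:76341563-76344281 on the plus strand of GRCm39, within the span of Bop1 on the minus strand, and the exons of the genes do not overlap. Bop1, a ribosome biogenesis factor, was at 38.7 against 36.5 CPM and at 58.1 against 57.2 CPM, a log2 ratio of 0.08 and 0.02, so Scx-positive cells did not stand out for the gene around Scx.

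Marker lists of other cell types were summed in both groups. Endothelial markers summed to 20.6 against 20.2 CPM and to 21.1 against 21.8 CPM in Scx-positive and Scx-0 cells, macrophage markers to 4.49 against 2.98 CPM and to 3.30 against 2.31 CPM, and erythroid markers to 288 against 314 CPM and to 2370 against 2541 CPM. Ectoderm markers summed to 21.1 against 14.0 CPM and to 10.2 against 7.75 CPM. Of these sums, Krt18 made up 16.1 against 7.98 CPM and 5.95 against 3.47 CPM. Krt18 was the only ectoderm marker to reach 5 CPM in either group in both libraries. It was higher in Scx-positive cells by 0.93 and 0.64 on the log2 scale. Of all features of at least 5 CPM, 0.639% were higher by at least 0.58 in both. Epcam, Cdh5, Lbx1 and Csf1r were at 0 by the rule. Scrublet called 375 of 2451 Scx-positive cells doublets (15.3%) against 4.41% of Scx-0 cells in dual-enSERT-1, and 7 of 466 (1.502%) against 0.407% in dual-enSERT-2. The libraries shared 49 barcodes, of which 10 were gated cells in both and none was Scx-positive in both.

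Few genes differed by much between Scx-positive and Scx-0 cells, and those that did carried other names than tendon genes. A gene was called where it reached 20 CPM in either group in both libraries and had the same direction and a log2 ratio (pseudocount of 1 CPM) of at least 0.58 in both, with the genes of the rule left out. Of 6745 features so measured, 38 (0.563%) were higher in Scx-positive cells and 39 (0.578%) were lower. The highest ranks among the higher genes belonged to Osr2, Plcl1, Nrk, Meox2, Smoc1 and Runx1t1. Those among the lower genes belonged to Rbfox3, Tfap2c, Lhx2, Msx1, Tbx2 and Hoxa13. Without the called doublets 40 were higher and 46 lower, with all 38 and 39 among them. Since the same cells were chosen on these UMIs, these counts describe the 2 libraries and are no test.

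**Figure D1:**
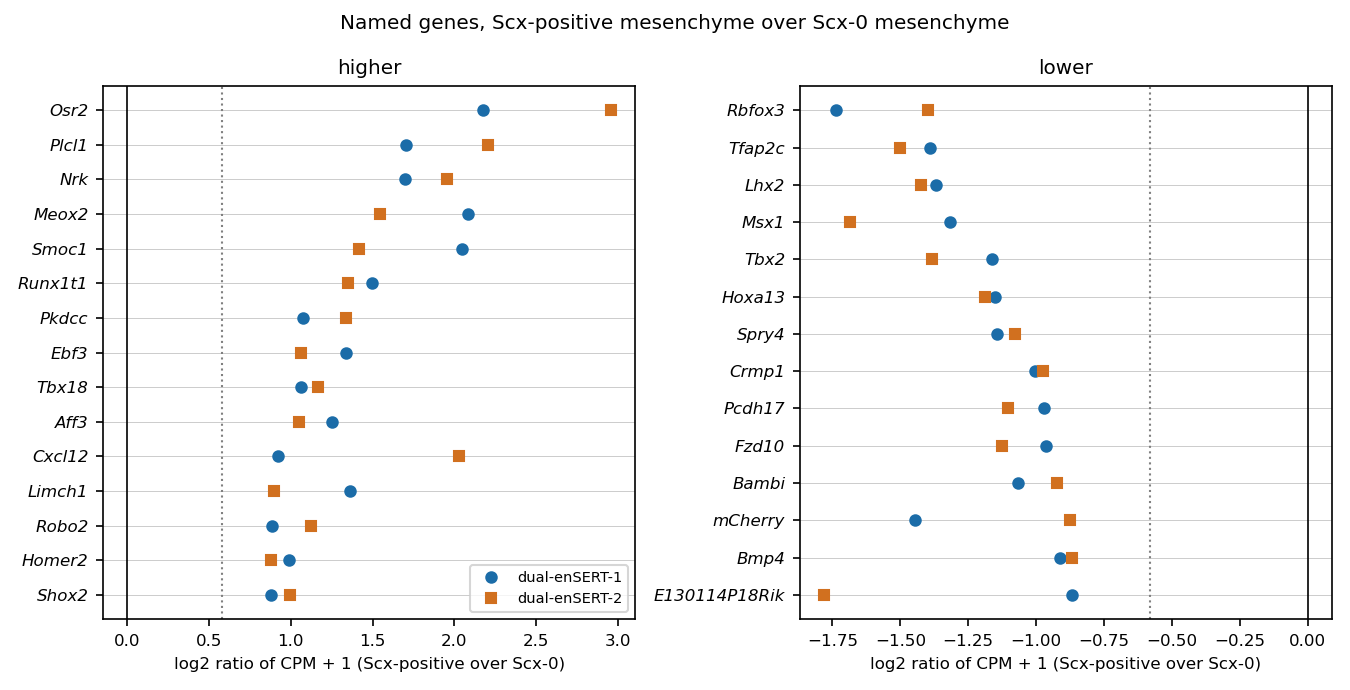
Log2 ratios of pooled CPM (plus 1) in Scx-positive over Scx-0 cells for the 15 named higher genes (left) and 14 of the 15 named lower genes (right), with a circle for dual-enSERT-1 and a square for dual-enSERT-2. The solid line marks 0 and the dotted line 0.58. All genes shown lie past the dotted line in both libraries, from 2.18 and 2.96 for Osr2 to 0.88 and 0.99 for Shox2 on the left, and Cxcl12 and E130114P18Rik show the widest gaps between libraries.

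Transcription factors of the list used here for muscle connective tissue were among the clearest differences. Osr2, a zinc finger factor of limb and joint mesenchyme, was at 82.6 CPM (80.0 to 85.3) in Scx-positive cells against 17.5 CPM (16.6 to 18.4) in Scx-0 cells of dual-enSERT-1. In dual-enSERT-2 it was at 34.3 CPM (31.2 to 37.5) against 3.54 CPM (3.08 to 4.05). Osr2 was thus higher in both libraries, by 2.18 and 2.96 on the log2 scale, and its level differed between libraries within each group. Osr2 lies at chr15:35296196-35303673, on the same chromosome as Scx.

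Meox2, a homeodomain factor of somites and limb mesenchyme, was at 152 against 35.1 CPM in dual-enSERT-1 and at 47.7 against 15.7 CPM in dual-enSERT-2. Meox2 was also abundant in muscle progenitors, at 137 and 106 CPM. Summed muscle markers were at 6.92 against 11.8 CPM and at 2.28 against 3.30 CPM in Scx-positive and Scx-0 cells. None of the 10 markers reached 5 CPM in both libraries, and the gate sets Lbx1, which is among them, at 0. Any part of muscle RNA in the Meox2 difference was not tested. Tbx18, a T-box factor of proximal limb mesenchyme, was at 119 against 56.3 CPM and at 72.9 against 31.9 CPM. Ebf3, an early B-cell factor family member found in mesenchyme, was at 75.9 against 29.5 CPM and at 42.4 against 19.8 CPM.

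Of 14 genes of the muscle connective tissue list, 11 reached the 5 CPM used for lists, and 6 of these were higher: Osr1, Osr2, Tbx18, Meox2, Ebf2 and Ebf3. None was lower, and the list's median log2 ratio was 0.81 and 1.06 in the libraries' order, beside -0.01 and 0.00 over all 10328 features of at least 5 CPM, of which 0.639% were higher. The other 5 of the 11 (Tcf4, Tcf7l2, Tbx4, Pdgfra and Ebf1) had positive log2 ratios in both libraries, but under 0.58 in at least 1. Tcf7l2, which marks connective tissue around muscle, was at 477 against 361 CPM and at 416 against 234 CPM, or 0.40 and 0.83. Osr1 was at 39.5 against 19.7 CPM and at 8.96 against 2.87 CPM. The list was chosen with earlier results of these data known, so its count is a description only. It is wider than the markers Osr1, Osr2 and Tcf7l2, and Tbx18 is also on the proximal list below.

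E-boxes, the letters CANNTG, are the sites that basic helix-loop-helix factors such as scleraxis bind. RefSeq's table of promoters (assembly GRCm38.p6, 300 bases around each start) held 12 of the 15 named higher genes, and 12 of their 17 promoters (70.6%) held CANNTG, beside 72.3% of all 32851 promoters in the table. The letters read the same on both strands. The promoters of Meox2 and Nrk, from the plus strand at chr12:37108290-37108589 and chrX:138914180-138914479, are shown because both genes were higher in Scx-positive cells and each window holds 1 match, in capitals:
Meox2: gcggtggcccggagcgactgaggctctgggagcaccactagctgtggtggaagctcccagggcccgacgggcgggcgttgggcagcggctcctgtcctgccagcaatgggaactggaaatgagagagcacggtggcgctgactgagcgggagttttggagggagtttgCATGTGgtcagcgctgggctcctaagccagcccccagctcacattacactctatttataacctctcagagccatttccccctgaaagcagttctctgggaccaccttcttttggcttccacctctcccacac
Nrk: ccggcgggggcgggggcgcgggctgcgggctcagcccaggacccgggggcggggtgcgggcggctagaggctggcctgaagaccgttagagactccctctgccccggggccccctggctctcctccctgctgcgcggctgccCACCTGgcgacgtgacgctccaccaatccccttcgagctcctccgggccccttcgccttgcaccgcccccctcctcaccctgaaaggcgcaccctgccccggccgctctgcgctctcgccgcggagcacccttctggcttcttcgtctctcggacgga
A match here describes letters in a window and not binding.

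Several signalling and matrix genes were higher too. Nrk, a Ste20-family kinase, was at 95.03 against 28.6 CPM in dual-enSERT-1 and at 70.7 against 17.5 CPM in dual-enSERT-2. Smoc1, a secreted calcium-binding matricellular protein that can inhibit BMP signalling, was at 132 against 31.2 CPM and at 151 against 55.7 CPM. Smoc1 was the more abundant in dual-enSERT-2 in both groups, the reverse of Osr2 and Meox2. Plcl1, a phospholipase C-like protein without catalytic activity, was at 29.1 against 8.24 CPM and at 28.2 against 5.31 CPM. Pkdcc, a secreted tyrosine kinase needed for limb bone growth, was at 34.0 against 15.6 CPM and at 63.1 against 24.3 CPM. Runx1t1, a transcriptional corepressor, was at 225 against 79.0 CPM and at 84.6 against 32.5 CPM, and Aff3, a transcription elongation factor, at 784 against 328 CPM and at 869 against 419 CPM. Limch1, an actomyosin regulator, and Homer2, a scaffold protein, were higher by 1.36 and 0.89 and by 0.99 and 0.88 on the log2 scale.

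Among guidance and adhesion genes, 20 of 23 were measured, 4 were higher and 1 was lower, beside 0.639% higher and 0.871% lower of the 10328 features of at least 5 CPM. Cxcl12, a chemokine, was at 59.2 against 30.8 CPM in dual-enSERT-1 and at 83.2 against 19.7 CPM in dual-enSERT-2. Its log2 ratios, 0.92 and 2.03, were the furthest apart among the 4. Hgf, the ligand of the Met receptor on migrating muscle progenitors, was at 27.8 against 4.73 CPM and at 19.7 against 4.89 CPM, or 2.33 and 1.82. Robo2, a Slit receptor, was at 1425 against 770.2 CPM and at 764 against 350.2 CPM, and the repellent ligand Sema3a was at 213 against 108 CPM and at 137 against 85.5 CPM. Pcdh17, a delta protocadherin, was at 12.9 against 26.3 CPM and at 18.4 against 40.6 CPM. Slit2, Slit3, Nrp1 and Cdh11 had log2 ratios below 0 in both libraries without reaching -0.58 in both.

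Few of the matrix and maturation genes of tendon were measured. Of 34 genes in the tendon list only 13 reached 5 CPM; none was higher and Bgn, a small leucine-rich proteoglycan, was lower (9.19 against 14.8 CPM and 4.40 against 7.51 CPM). Mkx, a homeodomain factor of tendon, was at 22.8 against 15.7 CPM in dual-enSERT-1 and at 6.17 against 7.01 CPM in dual-enSERT-2. Col1a2 was at 277 against 179 CPM in the first and at 120 against 142 CPM in the second, so that its direction differed between libraries. Col3a1 was at 230 against 118 CPM and at 148 against 110 CPM, the only fibril collagen of the list past 0.4 on the log2 scale in both (0.96 and 0.42) apart from Col5a1 (0.61 and 0.44). The list's median log2 ratio was 0.31 and -0.05. All 17 measured TGF-beta pathway genes stayed short of the call; Tgfbr3, a coreceptor, came closest, with 1.13 and 0.42.

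Several BMP ligands, targets and feedback genes were lower in Scx-positive cells. Of 23 BMP and GDF genes, 16 were measured, 7 were lower and none was higher, beside 0.871% lower among all features of at least 5 CPM. Bmp4, a ligand, was at 78.3 against 148 CPM and at 44.0 against 81.1 CPM. Msx1, a homeodomain target of BMP signals in distal mesenchyme, was at 111 against 277 CPM and at 73.8 against 239 CPM. Id1 was at 235 against 430.3 CPM and at 151 against 228.5 CPM, and Id3 at 227.5 against 446 CPM and at 220.3 against 389.8 CPM. Both encode helix-loop-helix proteins that hold back basic helix-loop-helix partners. Bambi, a decoy receptor, was at 27.4 against 58.4 CPM and at 20.6 against 39.9 CPM, and Bmp5 and Msx2 completed the 7. The receptors Bmpr1a and Bmpr2 and the transducers Smad1 and Smad5 had log2 ratios between -0.15 and 0.06 in both libraries. Bmpr1b went opposite ways, at 70.9 against 155 CPM in dual-enSERT-1 and at 44.5 against 30.0 CPM in dual-enSERT-2.

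FGF and WNT genes are counted beside the same 0.639% higher and 0.871% lower. Of 13 measured FGF genes, Spry1 and Spry4, inhibitors of FGF signalling, were lower and the ligand Fgf9 was higher, at 6.41 against 2.29 CPM and at 5.58 against 1.21 CPM. Spry4 was at 10.7 against 24.8 CPM and at 14.9 against 32.6 CPM. Of 11 measured WNT genes, the inhibitor Dkk1 (3.14 against 12.2 CPM and 7.63 against 29.7 CPM) and the nuclear factor Lef1 (86.2 against 138 CPM and 75.7 against 118 CPM) were lower. Fzd10, a WNT receptor outside that list, was at 11.3 against 23.0 CPM and at 13.1 against 29.8 CPM. None of the 9 Hedgehog response genes was called in either direction.

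Of 26 genes in the cartilage list 8 were measured, and none was called against all Scx-0 cells. Col2a1, the main collagen of cartilage, was at 92.7 against 68.7 CPM and at 22.4 against 9.91 CPM, or 0.43 and 1.10. The rule leaves cells with a Gsc, Barx2 or Cnmd UMI out of the Scx-positive cells but not out of the Scx-0 cells. Against the 4817 and 2320 Scx-0 cells without such a UMI, a comparison chosen after seeing the data, Col2a1 was at 92.7 against 48.4 CPM and at 22.4 against 9.72 CPM, or 0.92 and 1.13, and was the 1 gene of the 8 called, beside 0.803% higher of 10338 features. The median log2 ratios of the list were 0.07 and 0.10. Among cells without such a UMI, Col2a1 was higher at each step of Scx UMI number in both libraries, at 68.8, 82.0, 97.5 and 101.2 CPM with 1, 2, 3 to 4 and 5 or more Scx UMIs in dual-enSERT-1, and at 12.2, 16.04, 26.02 and 39.7 CPM in dual-enSERT-2. Of 27 S phase genes and 28 G2 and M phase genes, all were measured and none was called, with median log2 ratios between -0.07 and 0.06. No gene of either phase list thus separated the groups by the call.

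Genes of limb position set Scx-positive cells apart from Scx-0 cells along the proximal to distal axis. Of 10 measured genes of the distal list, 5 were lower (Hoxa13, Hoxd13, Lhx2, Lhx9 and Msx1) and none was higher; of 7 measured proximal genes, Shox2, Zbtb16 and Tbx18 were higher and none was lower. Of all features of at least 5 CPM, 0.871% were lower and 0.639% higher. Against Scx-0 cells without a Gsc, Barx2 or Cnmd UMI, 5 of the 7 proximal genes were higher and 5 of the 10 distal genes lower. The shares of all features were 0.803% higher and 0.977% lower there. Hoxa13, the homeodomain factor of the future foot, was at 50.7 against 114 CPM and at 12.8 against 30.4 CPM. Lhx2, a LIM factor of distal mesenchyme under the ridge, was at 50.5 against 132 CPM and at 59.8 against 162 CPM. Shox2, a homeodomain factor of the upper limb segment, was at 440 against 238 CPM and at 357 against 179 CPM. The 7 genes of the middle segment list, among them Hoxa11 and Hoxd11, held no call, with median log2 ratios of -0.01 and -0.28.

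Shares of cells were counted after thinning each cell of at least 5000 UMIs to 5000, with shallower cells left out. A Hoxa13 or Hoxd13 UMI was then seen in 22.3% (20.6 to 24.0) of Scx-positive cells against 43.6% of Scx-0 cells in dual-enSERT-1. In dual-enSERT-2 it was seen in 8.17% against 17.6%. Without thinning the shares were 36.0% against 56.3% and 21.5% against 37.5%. A Meis1 or Meis2 UMI, a sign of proximal cells, was seen in 38.9% against 25.6% and in 61.1% against 34.5%. Erythroid cells gave 6.11% and 0.955% for the Hox pair and 5.47% and 3.82% for the Meis pair, all below the mesenchyme. Scx-positive cells thus included fewer cells with a distal and more with a proximal marker, in both libraries.

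**Figure D2:**
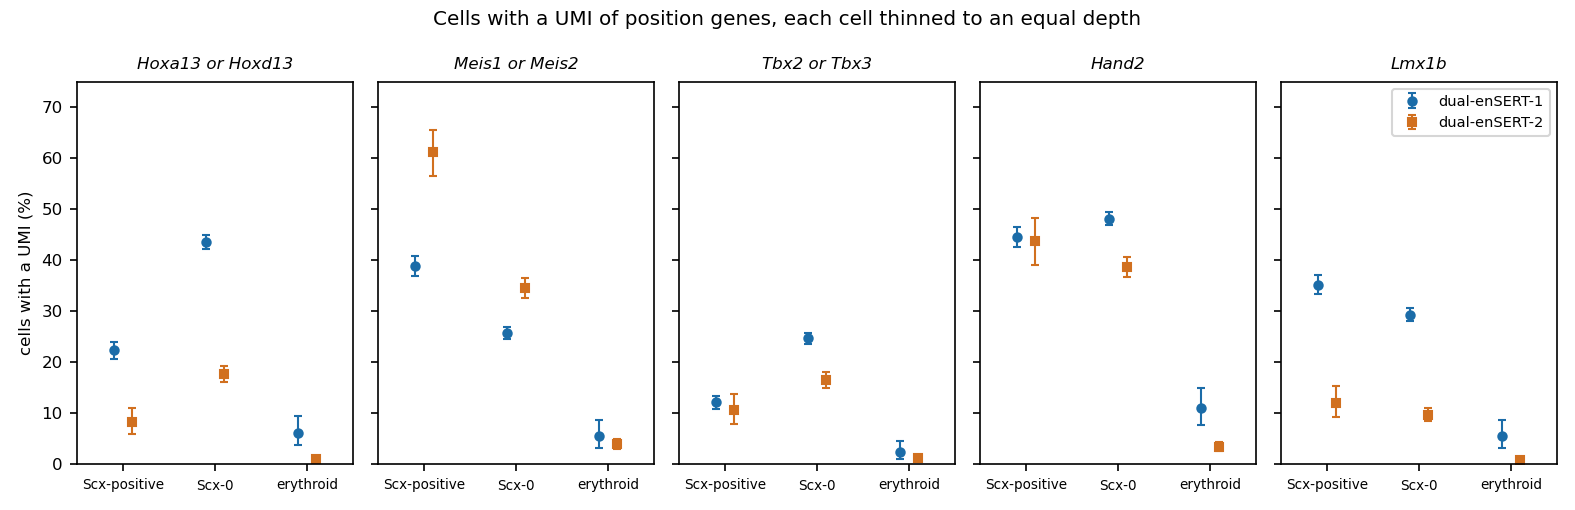
Percentage of cells with a UMI of each gene or gene pair after thinning to 5000 UMIs per cell, in Scx-positive, Scx-0 and erythroid cells, with circles for dual-enSERT-1, squares for dual-enSERT-2 and exact 95% intervals for counting error. Cells under 5000 UMIs are left out. The Hoxa13 or Hoxd13 share is lower and the Meis1 or Meis2 share is higher in Scx-positive than in Scx-0 cells of both libraries, and erythroid cells lie lowest within each library.

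Of 7 measured posterior genes, Tbx2 and Tbx3 were lower and none was higher, with list medians of -0.82 and -0.44. Of 3 measured anterior genes, 2 were lower and none was higher, with list medians of -0.63 and -1.25. These counts stand beside 0.871% lower of all features of at least 5 CPM. Against Scx-0 cells without a Gsc, Barx2 or Cnmd UMI, 1 of the 7 posterior and 2 of the 3 anterior genes were lower. The share lower of all features was 0.977% there. In shares of cells with a UMI, for Tbx2 or Tbx3, T-box factors of the limb margins, the shares were 12.0% against 24.6% in dual-enSERT-1 and 10.54% against 16.5% in dual-enSERT-2. Hand2, a posterior basic helix-loop-helix factor, was seen in 44.5% against 48.1% and in 43.7% against 38.6%, so that its direction differed between libraries. Lmx1b, which marks the dorsal side, was seen in 35.1% against 29.3% and in 12.0% against 9.65%. Both Scx-positive and Scx-0 cells thus included cells with and without an Lmx1b UMI, and the Lmx1b share was larger in dual-enSERT-1 in either group.

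Among Scx-positive cells, those with a Hoxa13 or Hoxd13 UMI after thinning (543 and 38 cells) carried less Osr2, Hgf and Meox2 than those without (1896 and 427 cells). Osr2 was at 36.1 against 100.5 CPM in dual-enSERT-1 and at 0 against 37.6 CPM in dual-enSERT-2. Hgf was at 14.5 against 32.9 CPM and at 1.63 against 21.6 CPM, and Meox2 at 93.2 against 174.7 CPM and at 22.8 against 50.1 CPM. Scx itself was at 137.7 against 216.0 CPM and at 73.2 against 101.4 CPM. Mkx was not lower, at 23.9 against 22.4 CPM and at 11.4 against 5.65 CPM. Cells with a Hox UMI were the deeper, with a median of 19791 against 15349 UMIs and 31398 against 27782 UMIs. Dorsal Scx-positive cells, with an Lmx1b UMI, had more Mkx than those without in dual-enSERT-1 (38.3 against 14.2 CPM) but not in dual-enSERT-2 (5.44 against 6.27 CPM), and more Shox2 in both (614 against 342 CPM and 629 against 319 CPM).

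When both groups were limited to cells without any Hoxa13 or Hoxd13 UMI, before thinning (1569 and 366 Scx-positive against 2525 and 1535 Scx-0 cells), 17 genes were higher, 13 of them among the 38, and 28 were lower, 20 of them among the 39. Osr2 kept log2 ratios of 1.60 and 2.83, Meox2 of 1.86 and 1.51, and Smoc1 of 1.84 and 1.26. Shox2 came to 0.34 and 0.91, Tbx18 to 0.48 and 0.85, Robo2 to 0.48 and 0.98, Cxcl12 to 0.28 and 1.72, and Pkdcc to 0.43 and 1.11, under the call in dual-enSERT-1. Msx1 was at -1.83 and -2.33 there and Lhx2 at -1.59 and -1.96, so their lower level was also measured outside the cells with a Hox UMI. A missing Hox UMI does not show that a cell is proximal at these depths.

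Levels were graded over the Scx count in the cell and did not break at the threshold. In cells with 0, 1, 2, 3 to 4 and 5 or more Scx UMIs, Osr2 was at 12.9, 27.7, 53.7, 81.3 and 128 CPM in dual-enSERT-1 and at 3.48, 10.6, 20.6, 42.5 and 70.0 CPM in dual-enSERT-2. Hgf went through 4.08, 9.94, 15.9, 30.8 and 41.0 CPM and through 4.63, 9.74, 12.8, 24.6 and 35.9 CPM. Both thus had higher levels at each step in both libraries. Msx1 fell at each step in both libraries, to 67.7 and 14.2 CPM at 5 or more Scx UMIs, against 307 and 249 CPM at 0. Lhx2 ended at 33.2 and 16.1 CPM, against 147 and 168 CPM at 0. Mkx stayed between 16.3 and 24.2 CPM and between 4.34 and 7.13 CPM, and Tnmd reached at most 0.217 CPM and 0.419 CPM in any bin. Col1a1 ranged from 25.0 CPM at 0 to 53.0 CPM at 5 or more in dual-enSERT-1, but only between 10.7 and 14.5 CPM in dual-enSERT-2. Median depth over the bins lay between 14699 and 17246 UMIs and between 24762 and 28218.5 UMIs, and its part in the grading was not tested.

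**Figure D3:**
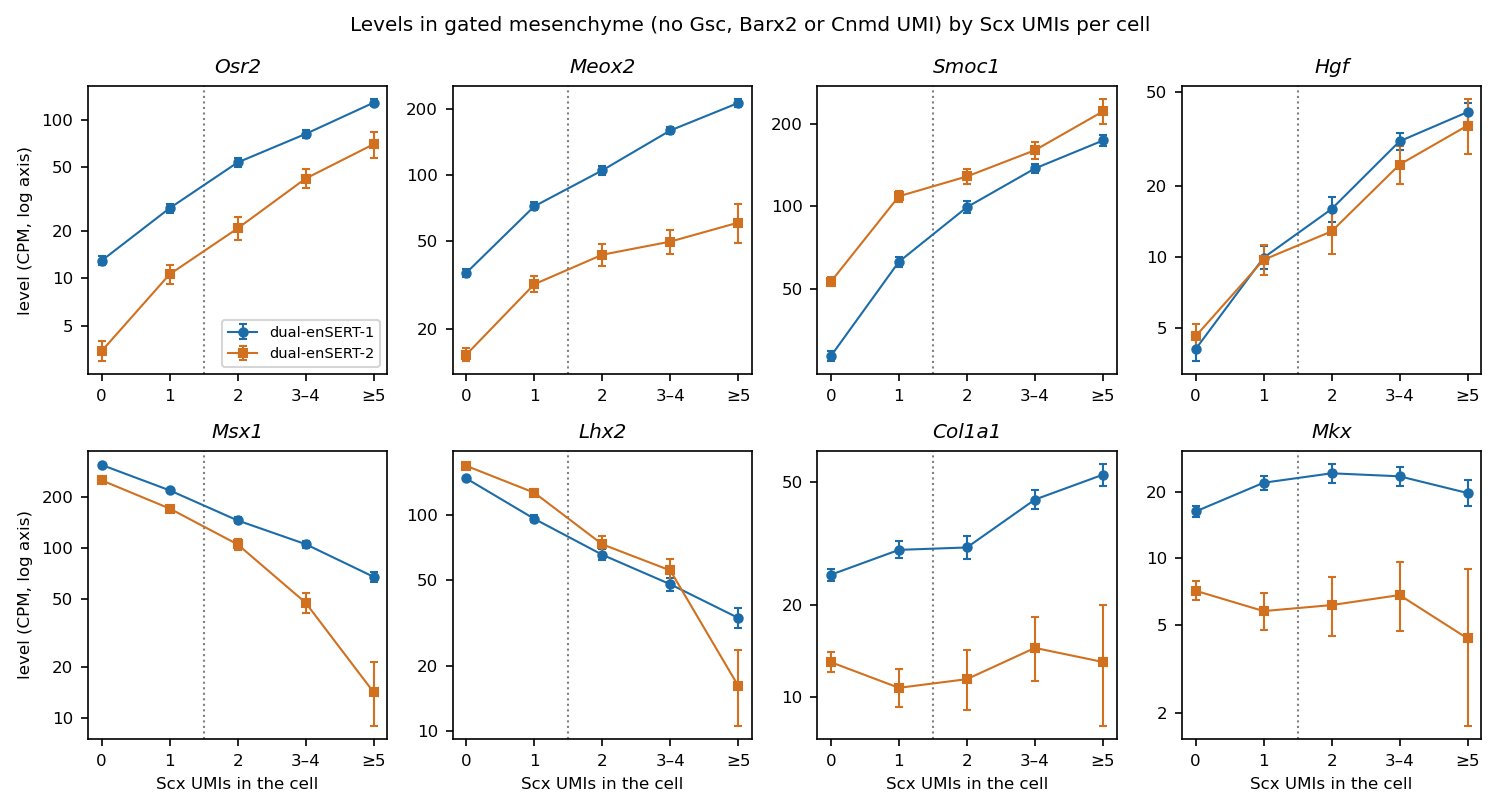
Pooled CPM (log axis) of 8 genes in gated cells without Gsc, Barx2 or Cnmd UMIs, by Scx UMIs in the cell, with circles for dual-enSERT-1, squares for dual-enSERT-2 and exact Poisson 95% intervals for counting error. The dotted line is the threshold between 1 and 2 Scx UMIs. Osr2, Meox2, Smoc1 and Hgf climb and Msx1 and Lhx2 decline across the line in both libraries, Col1a1 climbs in dual-enSERT-1, and Mkx stays within a narrow range.

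Over all gated cells, both reporters were lower in Scx-positive than in Scx-0 cells. The eGFP transcript, driven by the ZRS404G>A allele, was at 99.6 against 200.7 CPM in dual-enSERT-1, a ratio of 0.496 (0.480 to 0.513), and at 16.4 against 29.2 CPM in dual-enSERT-2, a ratio of 0.560 (0.485 to 0.644). The mCherry transcript, driven by the reference allele, was at 28.9 against 80.2 CPM, a ratio of 0.360 (0.339 to 0.381), and at 11.7 against 22.2 CPM, a ratio of 0.525 (0.443 to 0.619). In cells without a Hoxa13 or Hoxd13 UMI the eGFP ratios were 0.705 and 0.680 and the mCherry ratios 0.5803 and 0.602, closer to 1 in both libraries. Between Sox9-high Scx-positive and Sox9-high Scx-0 cells mCherry was at 15.4 against 15.6 CPM, a ratio of 0.986 (0.782 to 1.239), and at 3.87 against 3.65 CPM, a ratio of 1.06 (0.305 to 3.82). The eGFP ratios between these groups were 0.6645 (0.584 to 0.755) and 0.378 (0.104 to 1.154). Between the Sox9-low groups the eGFP ratios were 0.484 and 0.618 and the mCherry ratios 0.336 and 0.565. Leaving out called doublets brought the mCherry ratio to 0.233 in dual-enSERT-1. Erythroid cells also carried reporter RNA, with an eGFP UMI in 14.2% and 1.35% of thinned cells beside 21.8% and 6.02% of Scx-positive and 32.3% and 9.91% of Scx-0 cells.

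The Scx-positive cells were then split by Sox9, at 4 UMIs per 10000. Sox9-high cells numbered 488 of 2451 in dual-enSERT-1, or 19.9% (18.4 to 21.5), and 68 of 466 in dual-enSERT-2, or 14.6% (11.51 to 18.1). Among Scx-0 cells the same split gave 19.3% (18.3 to 20.4) and 3.79% (3.07 to 4.62), so the Scx-positive share was higher beyond the intervals in dual-enSERT-2 only. These Scx-0 cells include cells with a Gsc, Barx2 or Cnmd UMI, and the share without them is not given here. Among cells without such a UMI, Sox9 was at 167 and 64.5 CPM with 0 Scx UMIs. With 2, 3 to 4 and 5 or more Scx UMIs it was at 200, 214 and 206.5 CPM in dual-enSERT-1. In dual-enSERT-2 these levels were 114, 183 and 255 CPM. Near the split, 178 and 30 cells had Sox9 at 3 to under 4 per 10000 and 132 and 35 at 4 to under 5. The median cell held 9 and 14 Sox9 UMIs in the high group against 1 and 2 in the low group. Sox9-high cells were the shallower, at a median of 12760.5 against 16766 UMIs and 26156.5 against 28036 UMIs, and a share per 10000 scatters more in shallow cells. Among the cells thinned to 10000 UMIs, without the shallower ones, 24.9% and 24.8% of those passing the Scx rule were Sox9-high.

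Sox9-high Scx-positive cells had more RNA of several cartilage genes, and less of several WNT genes and of Bmp4, Bmp7, Grem1 and Msx1, than Sox9-low ones. Of 6864 features measured, 80 (1.17%) were higher and 59 (0.86%) were lower in Sox9-high than in Sox9-low cells. Among the named higher genes were the cartilage genes Sox6 and Col2a1 and the receptor Bmpr1b, and among the lower ones Msx1, Grem1, Meox2 and the WNT feedback genes Nkd1, Nkd2 and Axin2. With 68 cells, the Sox9-high values of dual-enSERT-2 carry the widest intervals. BC006965, an antisense RNA on the minus strand, overlaps exons of Sox9 (chr11:112673009-112678586), and whether the counting used strand is not given in the sources used here.

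**Figure D4:**
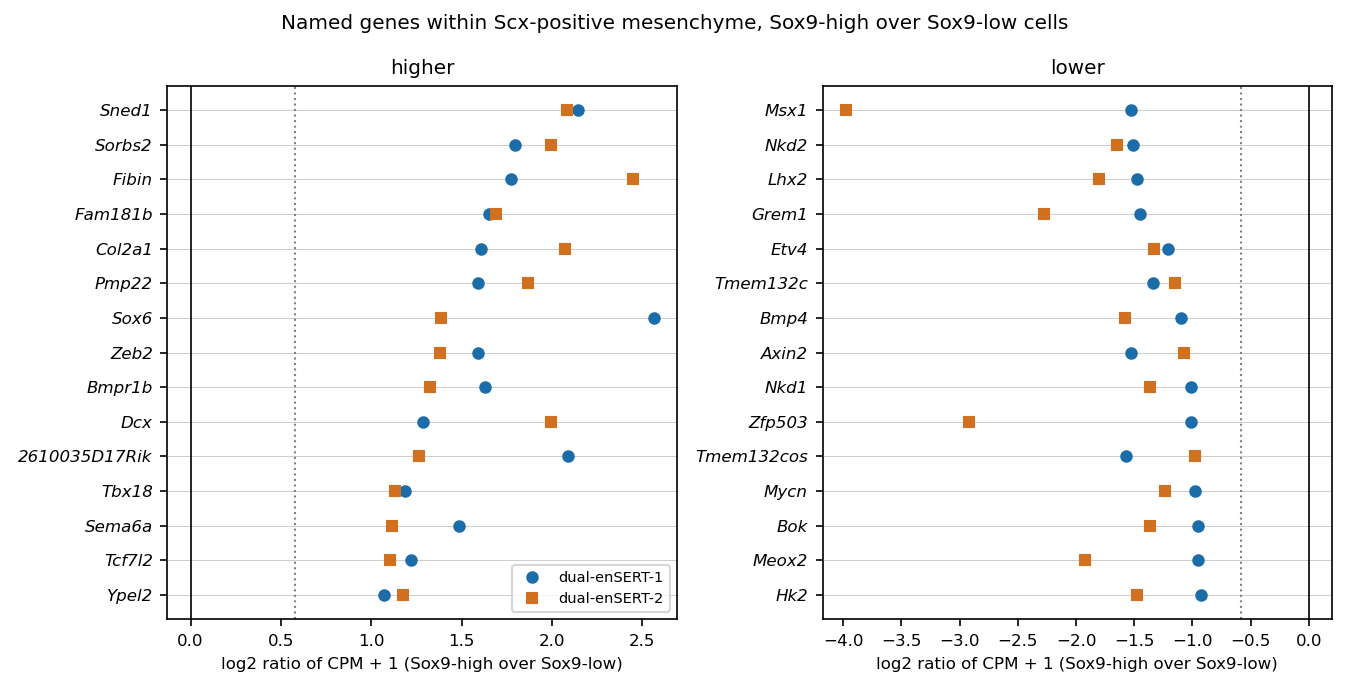
Log2 ratios of pooled CPM (plus 1) in Sox9-high over Sox9-low Scx-positive cells for the 15 named higher genes (left) and the 15 named lower genes (right), with a circle for dual-enSERT-1 and a square for dual-enSERT-2. The solid line marks 0 and the dotted line 0.58. Sned1 and Sorbs2 lie near 2 in both libraries, Sox6 is at 2.56 and 1.39, and Msx1 has the widest gap, at -1.52 and -3.98.

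Of 10 measured cartilage genes, 4 were higher in Sox9-high cells (Sox6, Col2a1, Col11a1 and Foxc1) and none was lower, beside 1.86% of all 10451 features of at least 5 CPM. Sox6, a partner of Sox9 in cartilage gene activation, was at 249 CPM (238 to 261) against 41.3 CPM (39.3 to 43.4) in dual-enSERT-1 and at 48.1 CPM (38.5 to 59.3) against 17.8 CPM (15.4 to 20.4) in dual-enSERT-2. Col2a1 was at 213 CPM (202 to 223) against 69.0 CPM (66.4 to 71.8) and at 68.0 CPM (56.5 to 81.1) against 15.4 CPM (13.2 to 17.8). Both were higher by more than the call in each library, and both were more abundant in dual-enSERT-1. Sox5, the third of the Sox trio, was at 408 against 204 CPM and at 342 against 234 CPM, or 0.998 and 0.54, short of the call in dual-enSERT-2. Acan, the main proteoglycan of cartilage matrix, had no UMI in Scx-positive cells of either library, which allows up to 0.0667 and 0.220 CPM. Foxc1, a forkhead factor of skeletal mesenchyme, was at 17.4 against 2.48 CPM and at 12.2 against 3.56 CPM.

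Receptors, adaptors and cytoskeletal genes were among the other named higher genes. Bmpr1b, a BMP receptor of cartilage condensations, was at 164 against 52.5 CPM and at 93.9 against 36.9 CPM. Sema6a, a transmembrane semaphorin, was at 292 against 104 CPM and at 180.1 against 82.5 CPM. Sorbs2, an adaptor of the actin cytoskeleton, was at 83.5 against 23.3 CPM and at 70.7 against 17.0 CPM, and Dcx, a microtubule-binding protein best known from migrating neurons, at 43.1 against 17.1 CPM and at 56.4 against 13.4 CPM. Sned1, a secreted matrix glycoprotein, was at 44.6 against 9.32 CPM and at 43.1 against 9.40 CPM, and Fibin, a secreted protein of fin bud studies in fish, at 87.7 against 25.0 CPM and at 21.6 against 3.13 CPM. Sned1 shares exons with Mterf4 on the opposite strand. Zeb2, a zinc finger repressor, was at 37.6 against 11.8 CPM and at 75.1 against 28.2 CPM. The long noncoding RNA 2610035D17Rik, on chromosome 11 as Sox9 is, was at 114 against 26.1 CPM and at 50.8 against 20.6 CPM.

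Of 10 measured WNT genes, 5 were lower in Sox9-high cells and none was higher, beside 1.22% lower among all features of at least 5 CPM, with list medians of -0.74 and -0.90 beside 0.04 and 0.03 over all features. Axin2, a negative feedback target of WNT, was at 14.6 against 44.0 CPM and at 9.39 against 20.9 CPM. Nkd2, another inhibitor of the pathway, was at 20.2 against 59.1 CPM and at 7.18 against 24.7 CPM, and Nkd1 was at 23.5 against 48.5 CPM and at 8.84 against 24.4 CPM. Lef1 and Dkk2 were the remaining 2. Mycn, a proto-oncogene of proliferating limb mesenchyme, was at 16.2 against 32.9 CPM and at 18.2 against 44.4 CPM. All 27 S phase genes were measured and 22 had log2 ratios below 0 in both libraries, but none reached the call, with medians of -0.23 and -0.26. Over all features of at least 5 CPM, 3013 of 10451 were below 0 in both. All 28 G2 and M phase genes were measured and none was called, with medians of -0.15 and 0.29 and sums of 6338 against 7014 CPM and 8716 against 7059 CPM, in opposite directions in the libraries.

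Of 14 measured BMP and GDF genes, Bmp4, Bmp7, Grem1 and Msx1 were lower and Bmpr1b was higher, beside 1.22% lower and 1.86% higher of all features of at least 5 CPM. The list's median log2 ratios were -0.14 and 0.07. Bmp4 was at 39.5 against 85.9 CPM and at 15.5 against 48.3 CPM, and Bmp7 at 10.2 against 27.2 CPM and at 15.5 against 25.0 CPM. Grem1, a secreted BMP antagonist that maintains the ridge, was at 20.02 against 56.4 CPM and at 12.2 against 62.6 CPM. Msx1 was at 42.5 against 124 CPM in dual-enSERT-1 and at 4.42 CPM (1.91 to 8.71) against 84.5 CPM in dual-enSERT-2. The Id genes did not follow, with Id3 at 286 against 216 CPM and at 287 against 210.1 CPM, or 0.41 and 0.45. Etv4, an ETS factor induced by FGF signals, was at 12.6 against 30.4 CPM and at 15.5 against 40.5 CPM.

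The connective tissue genes parted along the Sox9 split. Osr2 was at 134 CPM (126 to 142) against 72.5 CPM (69.9 to 75.3) in dual-enSERT-1 and at 69.1 CPM (57.5 to 82.3) against 28.9 CPM (26.0 to 32.2) in dual-enSERT-2. Meox2 ran the other way, at 85.1 CPM (78.6 to 92.0) against 165 CPM (161 to 169) and at 13.3 CPM (8.50 to 19.7) against 53.0 CPM (48.9 to 57.3). Hgf was at 15.8 against 30.2 CPM and at 13.3 against 20.7 CPM, and Osr1 at 26.8 against 42.0 CPM and at 5.53 against 9.48 CPM, both lower. Cxcl12 was at 101 against 50.9 CPM and at 211 against 63.6 CPM, and Sema3d, a secreted semaphorin, at 29.4 against 3.46 CPM and at 13.8 against 2.62 CPM, both higher. Tbx18, Tcf7l2 and Ebf3 were higher beside Osr2. Mkx, the only tendon gene called, was at 12.4 against 24.9 CPM and at 0.552 against 7.03 CPM, the first value in dual-enSERT-2 from 1 UMI.

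Position went with the split as well. Of 9 measured distal genes 6 were lower and none was higher in Sox9-high cells, beside 1.22% lower of 10451 features. Of 6 measured posterior genes, Tbx2, Tbx3 and Hoxd12 were lower, with list medians of -0.71 and -1.77. Of 3 measured anterior genes, 2 were lower and 1 was above 0 in both libraries, with list medians of -0.82 and -0.91. A Hoxa13 or Hoxd13 UMI was seen in 12.0% of Sox9-high against 24.8% of Sox9-low cells in dual-enSERT-1, and in 0 of 68 against 9.57% in dual-enSERT-2. Of Scx-positive cells with such a UMI, 10.7% were Sox9-high against 22.4% of those without in dual-enSERT-1, and 0 of 38 (up to 9.25%) against 15.9% in dual-enSERT-2. In cells without a Hox UMI, Sox6 was still at 2.84 and 1.497, Col2a1 at 1.41 and 1.84, Meox2 at -1.23 and -2.12 and Nkd2 at -1.66 and -1.60 on the log2 scale. Tcf7l2 (1.17 and 0.90) and Tbx18 (0.88 and 0.81) also kept to the call there.

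Scx-positive and Scx-0 cells were also compared within the Sox9-high cells of each library. Between Sox9-high Scx-positive cells and the 1118 and 93 Sox9-high Scx-0 cells, 27 of 6841 features (0.395%) were higher and 14 (0.205%) were lower. Osr1, Osr2 and Meox2 were the 3 called of 11 measured muscle connective tissue genes, all higher, beside 0.518% higher among the 10434 features of at least 5 CPM. Tbx18, Ebf2 and Ebf3, called against all Scx-0 cells, were not called here. The list's median log2 ratios were 0.51 and 0.45, against 0.81 and 1.06 over all Scx-positive and Scx-0 cells. With Scx-0 cells limited to those without a Gsc, Barx2 or Cnmd UMI, these medians were 0.64 and 0.51, against 1.41 and 1.15. Osr2 was at 134 against 52.6 CPM and at 69.1 against 18.9 CPM, and Plcl1 at 44.0 against 12.2 CPM and at 28.7 against 10.3 CPM. Nrk was at 123 against 43.0 CPM and at 102 against 51.1 CPM, and Ror1, a receptor for Wnt5a, at 123 against 52.5 CPM and at 134 against 66.3 CPM. Hs3st3b1, an enzyme that sulfates heparan sulfate, was at 22.1 against 8.78 CPM and at 21.0 against 4.26 CPM, and the metalloprotease Adamts6 at 88.6 against 45.6 CPM and at 27.1 against 14.0 CPM. None of 9 measured cartilage genes was called: Sox6 was at 249 against 402 CPM and at 48.1 against 41.4 CPM, and Col2a1 at 213 against 256 CPM and at 68.0 against 43.8 CPM, with opposite directions in the libraries. Sox9 itself was at 709 against 820 CPM and at 526 against 557 CPM in these groups. The Sox9-high Scx-0 cells include cells with a Gsc, Barx2 or Cnmd UMI, which the rule bars from the Scx-positive cells. Against those without such a UMI, Col2a1 was at 213 against 183 CPM and at 68.0 against 41.5 CPM. Its log2 ratios were then 0.21 and 0.70, higher in both libraries. Sox6 kept opposite directions there, with -0.22 and 0.19, and again none of 9 measured cartilage genes was called.

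Of 5 measured distal genes, 4 were lower in this comparison, beside 0.355% lower among all features of at least 5 CPM. Lhx2 was at 19.8 against 53.0 CPM and at 18.2 against 54.7 CPM, Msx1 at 42.5 against 89.2 CPM and at 4.42 against 31.6 CPM, and Pcdh17 at 22.9 against 54.7 CPM and at 30.9 against 68.7 CPM. Erg, an ETS factor of developing joints, was at 8.93 against 20.7 CPM and at 4.42 against 7.91 CPM. Tll1, a protease that processes procollagen and BMP antagonists, was at 18.8 against 44.0 CPM and at 12.2 against 23.7 CPM. Slc1a3, a glutamate transporter, and Kctd8, a potassium channel domain protein, had log2 ratios of -0.80 and -1.14 and of -0.87 and -1.85.

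In the Sox9-low comparison (1963 and 398 Scx-positive against 4662 and 2363 Scx-0 cells), 36 of 6739 features (0.534%) were higher and 38 (0.564%) were lower. Of the muscle connective tissue genes 6 of 11 measured were higher, beside 0.601% of 10314 features of at least 5 CPM, and 7 of 16 BMP and GDF genes were lower, beside 0.844%. Hgf was at 30.2 against 4.97 CPM and at 20.7 against 4.81 CPM. Osr2 was at 72.5 against 10.2 CPM and at 28.9 against 3.103 CPM, Meox2 at 165 against 39.1 CPM and at 53.0 against 15.9 CPM, and Smoc1 at 137 against 30.6 CPM and at 152 against 54.6 CPM. Sgcz, a sarcoglycan, was at 7.19 against 22.3 CPM and at 9.65 against 27.8 CPM, the first of the lower genes by rank. Scx-positive cells of low Sox9 thus held the highest Meox2 and Hgf of the 4 groups in both libraries, and those of high Sox9 the highest Osr2, Nrk and Cxcl12.

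**Figure D5:**
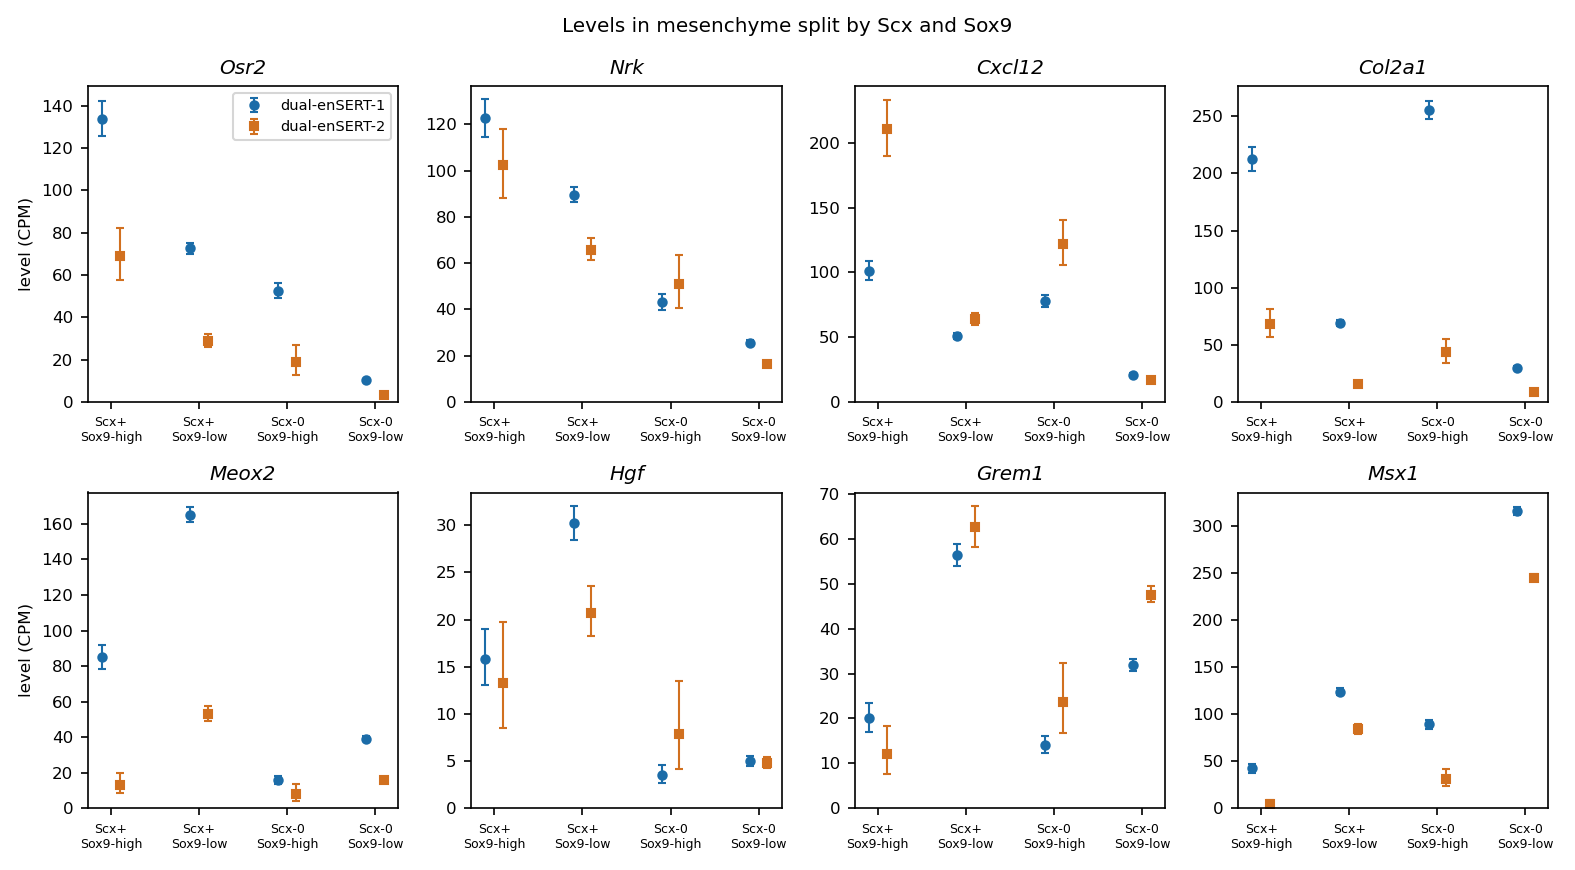
Pooled CPM of 8 genes in Sox9-high and Sox9-low Scx-positive cells (Scx+) and in Sox9-high and Sox9-low Scx-0 cells, with circles for dual-enSERT-1, squares for dual-enSERT-2 and exact Poisson 95% intervals for counting error. Osr2, Nrk and Cxcl12 are highest in Scx-positive Sox9-high cells, Meox2, Hgf and Grem1 in Scx-positive Sox9-low cells, and Msx1 in Scx-0 Sox9-low cells, in both libraries.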

How the data were processed

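Single-cell suspensions of hindlimb, dissociated with collagenase II, were run on the 10x Genomics 3' chemistry with 10000 cells loaded and about 50000 reads per cell, per the labels' protocols. The authors deposited unnormalized UMI counts for each gene and barcode; the headers name Cell Ranger 7.0.1 and the submitters' processing notes Cell Ranger 3.1.0, Seurat 4 and mm39. None of these sources says which annotation release was used, or whether intronic reads or strand were; overlapping genes (Shox2 with Rsrc1, Sox6 with 1110004F10Rik, Crmp1 with Evc, E130114P18Rik with Nfia) cannot be told apart with certainty. The libraries hold 298653282 and 184301053 UMIs in 20508 and 8885 barcodes.

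From the counts, UMIs were pooled over the cells of a group in each library and expressed as CPM, with log2 ratios at a pseudocount of 1 CPM. Called genes reached 20 CPM in either group in both libraries and an absolute log2 ratio of 0.58 in both, and gene lists were read at 5 CPM. The up to 15 genes per direction (8 in the comparisons within a Sox9 class) with the largest smaller log2 ratio were named, besides list members given as examples. The members, lists and settings were chosen with earlier results of these data known. No test was possible with 1 library per arrangement, and Poisson and Clopper-Pearson intervals cover counting error only. Doublets were called only as an alternative (Scrublet, expected rate 8%). The arithmetic of the calling step was run on simulated Poisson counts. These hold no variation between cells and no choice of cells by their own UMIs, so they do not show how the calls fare with either. Positions are from GENCODE M39 on GRCm39, in which 56236 of 56982 feature IDs were found. Python 3.11.15, NumPy 2.4.6, SciPy 1.17.1, pandas 2.3.3, Scanpy 1.11.5 and matplotlib 3.10.9 were used. A few genes of the results are not reported here.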

Additional observations from a re-analysis of the deposited data

How the results depend on the processing

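No paired analysis was possible because each arrangement has 1 library and no result comes from a test. Over 78 log2 ratios of named genes, each the smaller of its 2 libraries in the called direction (a Sox9-low ratio only where the gene was not named against all Scx-0 cells), and the alternatives of doublets, depth, gene number, cell weighting, pseudocount, Hox UMI, Scx and Sox9 thresholds and Scx-0 cells without Gsc, Barx2 and Cnmd UMIs (the last chosen after seeing the data), 552 of 660 values moved by less than the counting error, 95 moved by more, 13 changed sign, and 25 of the 660 lay within 0.58 of 0. All 13 belong to a Sox9 split at 8 per 10000, which left 3 Scx-positive and 11 Scx-0 Sox9-high cells in dual-enSERT-2; these are, within Scx-positive cells, Sox6 -4.52, Bmpr1b -1.19, Tbx18 -1.89, Sema6a -1.31, Tcf7l2 -0.54, Bmp4 0.37, Nkd1 0.75 and Bok 1.25, and between Sox9-high groups Osr2 -1.11, Ror1 -2.26, Nrk -6.42, Runx1t1 -0.14 and Pcdh17 1.76. With no filter on low values the higher and lower counts were 102 and 132 (Scx-positive against Scx-0), 327 and 250 (Sox9-high against Sox9-low), 168 and 192 (Sox9-high groups) and 108 and 130 (Sox9-low groups). In cells without a Hoxa13 or Hoxd13 UMI, 17 genes were higher in Scx-positive cells, 39 lower in Sox9-high cells and 20 higher in the Sox9-low groups. With at least 3 Scx UMIs, 62 were higher in Scx-positive cells and 61 in the Sox9-low groups, Scx-positive shares were 12.1% and 5.71%, and the Sox9-high share of dual-enSERT-2 was 20.1%. A Sox9 split at 8 gave 143 lower genes within Scx-positive cells, 40 lower between Sox9-high groups, and shares of 6.69% and 0.644%; a split at 2 gave 37 lower genes and shares of 37.9% and 32.2%. With cells weighted equally, 9 genes were lower between Sox9-high groups and the reporter ratios of dual-enSERT-1 were 0.444 (eGFP) and 0.291 (mCherry). Against Scx-0 cells without Gsc, Barx2 and Cnmd UMIs, 43 were higher between Sox9-high groups. Without doublets the Scx-positive share of dual-enSERT-1 was 18.6%, with ratios of 0.415 (eGFP) and 0.233 (mCherry). The rule at 10000 UMIs, in cells of at least that depth, gave Scx-positive shares of 14.4% and 4.06% and Sox9-high shares of 24.9% and 24.8%. Without a Hox UMI the reporter ratios were 0.705 and 0.680 (eGFP) and, in dual-enSERT-1, 0.5803 (mCherry). The causes were not tested.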
